A study of Mus musculus with 33 samples.

Results

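The cells described here are fibroblasts of the mouse colon lamina propria that carried UMIs of Adamdec1 together with Ereg and Cxcl2. They were chosen from 3 single-cell libraries by their own transcripts. A barcode was kept when it had 1000 or more UMIs from 500 or more genes and no more than 20% of them were mitochondrial. Of the 17652 barcodes kept, 6370 had Adamdec1 at 0.4% or more of their UMIs, fewer than 2 Nrg1 UMIs and fewer than 2 UMIs of Pecam1 and Cdh5 together. Among these, 943 cells had 3 or more Ereg UMIs and 1 or more Cxcl2 UMIs: 808 in the whole mesenchyme library and 47 and 88 in GFP-low replicates 1 and 2. They are called Ereg Cxcl2 cells below. The cells they were compared with passed the same Adamdec1, Nrg1, Pecam1 and Cdh5 limits and held 0 UMIs of both Ereg and Cxcl2. There were 864, 372 and 490 of these in the 3 libraries, 1726 in all, and they are called cells with neither. Wherever 3 values follow each other, they are in the order whole mesenchyme, GFP-low replicate 1, GFP-low replicate 2.

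All 3 libraries came from the colon of untreated adult mice of either sex, with the outer muscle layer stripped off, and the tissue was dissociated with EDTA and then with collagenase at 37°C. The whole mesenchyme library, 1 library with the genotype given as control, was sorted for cells without EpCAM, an epithelial marker, and without CD45, a leukocyte marker. Both GFP-low libraries came from PdgfraH2BeGFP mice (JAX strain 007669), in which the Pdgfra locus drives a nuclear green fluorescent protein, and held unstained cells sorted on a low GFP level. For each library 8000 live cells were loaded on a 10x Chromium controller. The labels do not say how many animals stood behind a library, so the p-values below rest on 3 libraries and not on animals. In the edgeR fit the spread of each gene is drawn toward that of all genes. An SE can therefore be smaller than the gene's own spread over the libraries. No labelled treatment separates the libraries, and the comparison is between cells of the same library.

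Adamdec1 encodes a disintegrin-like metalloprotease that marks lamina propria fibroblasts of the intestine. Ereg encodes epiregulin, an EGF family ligand that acts on the EGF receptor of epithelial cells. Cxcl2 and its neighbour Cxcl1 encode chemokines that attract neutrophils through Cxcr2. In fibroblasts these chemokine genes are induced through NF-kB, a transcription factor that also switches on its own inhibitors Nfkbia and Tnfaip3. Warm enzymatic dissociation of tissue is itself known to induce immediate early genes such as Fos, Jun and Egr1, and NF-kB targets can rise in the same setting.

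The promoters of 5 genes are printed first because they carry the NF-kB motif shared by some of the genes described below. Each line holds the 250 bases before the RefSeq transcription start in GRCm38.p6, on the gene's own strand. Capitals mark matches on either strand to GGNNTTTCC, an NF-kB motif, and to TGANTCA, an AP-1 motif bound by Fos and Jun proteins. The capitals do not overlap.
Cxcl1, chr5:90890995-90891244, plus strand: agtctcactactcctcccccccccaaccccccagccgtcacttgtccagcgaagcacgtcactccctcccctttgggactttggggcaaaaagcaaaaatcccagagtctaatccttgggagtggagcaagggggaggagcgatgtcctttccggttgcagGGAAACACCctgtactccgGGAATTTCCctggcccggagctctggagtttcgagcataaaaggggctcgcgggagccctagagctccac
Cxcl2, chr5:90903649-90903898, plus strand: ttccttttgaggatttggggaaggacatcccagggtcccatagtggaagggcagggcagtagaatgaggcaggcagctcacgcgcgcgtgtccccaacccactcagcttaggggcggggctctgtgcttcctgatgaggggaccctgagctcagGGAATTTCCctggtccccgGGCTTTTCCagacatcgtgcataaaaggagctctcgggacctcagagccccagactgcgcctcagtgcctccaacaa
Il6, chr5:30012864-30013113, plus strand: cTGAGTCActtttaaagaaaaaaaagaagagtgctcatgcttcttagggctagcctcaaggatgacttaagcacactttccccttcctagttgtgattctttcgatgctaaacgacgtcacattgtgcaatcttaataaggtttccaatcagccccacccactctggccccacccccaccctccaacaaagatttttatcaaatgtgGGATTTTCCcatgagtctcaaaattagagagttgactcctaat
Nfkbia, chr12:55492648-55492897, minus strand: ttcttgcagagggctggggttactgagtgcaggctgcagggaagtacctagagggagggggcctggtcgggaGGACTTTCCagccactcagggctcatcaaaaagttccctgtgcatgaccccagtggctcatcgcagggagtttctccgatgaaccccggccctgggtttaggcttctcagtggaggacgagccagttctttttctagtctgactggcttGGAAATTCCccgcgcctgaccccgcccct
Tnfaip3, chr10:19015411-19015660, minus strand: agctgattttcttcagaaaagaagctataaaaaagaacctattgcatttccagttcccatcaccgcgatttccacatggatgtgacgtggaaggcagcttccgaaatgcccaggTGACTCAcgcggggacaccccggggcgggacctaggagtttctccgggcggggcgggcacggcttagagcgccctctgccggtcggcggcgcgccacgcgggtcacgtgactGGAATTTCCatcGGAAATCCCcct
Cxcl1, Cxcl2, Nfkbia and Tnfaip3 each held 2 matches to GGNNTTTCC, and Il6 held 1. Il6 and Tnfaip3 also held 1 match each to TGANTCA. Among all 32851 promoters of the same length in the table, 4.93% held GGNNTTTCC and 6.75% held TGANTCA. The 5 genes were picked after values were seen and for carrying the motif, and Cxcl2 sets the gate. These shares are therefore no test of the 5 promoters. A match describes the letters of the window and is not a measured binding site.

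The values that chose the cells are given as a description. Each Ereg Cxcl2 cell carried a median of 10 Ereg UMIs in each of the 3 libraries, with a highest value of 115, 92 and 108. Cxcl2 had medians of 6, 4 and 9 UMIs and highest values of 162, 47 and 119. A single Cxcl2 UMI was all that 187 of 808, 8 of 47 and 12 of 88 cells had. At the edge of the gate, 180, 4 and 19 cells had 3 to 4 Ereg UMIs, and their median Cxcl2 count was 3, 2.5 and 3. Just outside it, 377, 23 and 42 cells had 1 to 2 Ereg UMIs with Cxcl2, and their median Cxcl2 count was 3, 5 and 8. Adamdec1 took a median of 1.31%, 1.04% and 1.27% of UMIs, against 1.07%, 1.06% and 1.37% in cells with neither.

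The fibroblast markers were present. The 7 fibroblast markers Col1a1, Col1a2, Col3a1, Dcn, Lum, Pdgfra and Pdpn summed to 17041, 19935 and 16439 CPM (UMI counts scaled to a common total) in the Ereg Cxcl2 cells, and all 7 were read in every library. Droplets with at most 50 UMIs held them at 14672, 25947 and 20949 CPM, above the Ereg Cxcl2 cells in both GFP-low libraries, and whole mesenchyme endothelial cells at 3311 CPM. The mesothelial and red blood cell markers and the neutrophil markers S100a8, S100a9 and Csf3r were at 0 in all 3 libraries. The epithelial markers Epcam, Krt18 and Krt19 were also at 0, but Lgals4 was read in every library. All 7 epithelial markers summed to 3.75, 4.87 and 5.44 CPM, against 3.99, 5.94 and 4.13 CPM in cells with neither. All 6 neutrophil markers, Ptprc and Il1b among them, summed to 6.51, 43.8 and 13.6 CPM, against 5.99, 25.1 and 12.4 CPM in cells with neither. The 8 macrophage and monocyte markers summed to 15.6, 56.0 and 28.6 CPM, against 19.3, 37.0 and 25.2 CPM in cells with neither. Saa3, an acute-phase serum amyloid gene given as a marker of these cells, was present in few of them: 156 of 808, 6 of 47 and 5 of 88 cells had a UMI.

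Libraries and cell sets differed in depth, mitochondrial share, sex and free RNA. The libraries held 6793, 4834 and 6025 barcodes past the limits, at medians of 4429, 6446.5 and 7025 UMIs, and pairs of libraries shared 6 to 11 barcodes. The Ereg Cxcl2 cells were deeper than the cells with neither, at medians of 6460.5, 8524 and 8352.5 UMIs against 2753.5, 6241.5 and 5586.5, as a gate on UMI counts favours. Their median mitochondrial share was lower in each library, at 3.51%, 3.37% and 2.09% against 6.09%, 3.87% and 2.77% in cells with neither. In the whole mesenchyme library, cells with Xist and no Y-linked UMI made up 31.4% of the sexed Ereg Cxcl2 cells and 54.8% of the sexed cells with neither. In the GFP-low libraries no Ereg Cxcl2 cell and no cell with neither had an Xist UMI. There, 36 and 65 Ereg Cxcl2 cells and 222 and 249 cells with neither had a Y-linked UMI. The same near-empty droplets, which hold free RNA, carried Ereg at 882, 136 and 271 CPM and Cxcl2 at 591, 35.5 and 139 CPM. The part of these differences in the results was tested only where a matched value is given.

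The gate took in 19.5% of Adamdec1 cells with fewer than 2 Nrg1 UMIs in the whole mesenchyme library (808 of 4149, exact 95% interval 18.3 to 20.7%). In the GFP-low libraries it took in 4.53% (47 of 1038, 3.35 to 5.98%) and 7.44% (88 of 1183, 6.01 to 9.08%). These intervals and all others here cover counting error only. The sort, genotype, depth and sex of the cells read differ between the whole mesenchyme and the GFP-low libraries and cannot be told apart. The whole mesenchyme library also held 736 cells with 2 or more UMIs of the endothelial genes Pecam1 and Cdh5, taken without an Adamdec1 limit. Of these, 2.45% passed the same Ereg and Cxcl2 limits (1.46 to 3.84%), at a median depth of 3162 UMIs against 4888. Cells of that library below the Adamdec1 limit, with fewer than 2 such UMIs, passed at 5.69% (78 of 1372, 4.52 to 7.04%). Free RNA, droplets with 2 cells and transcripts of the cells themselves cannot be told apart in these shares. Among Adamdec1 cells with 2 or more Nrg1 UMIs, 25.0% passed in the whole mesenchyme library (134 of 536, 21.4 to 28.9%). In GFP-low replicates 1 and 2 it was 10% (5 of 50, 3.33 to 21.8%) and 12.5% (6 of 48, 4.73 to 25.2%).

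**Figure D1:**
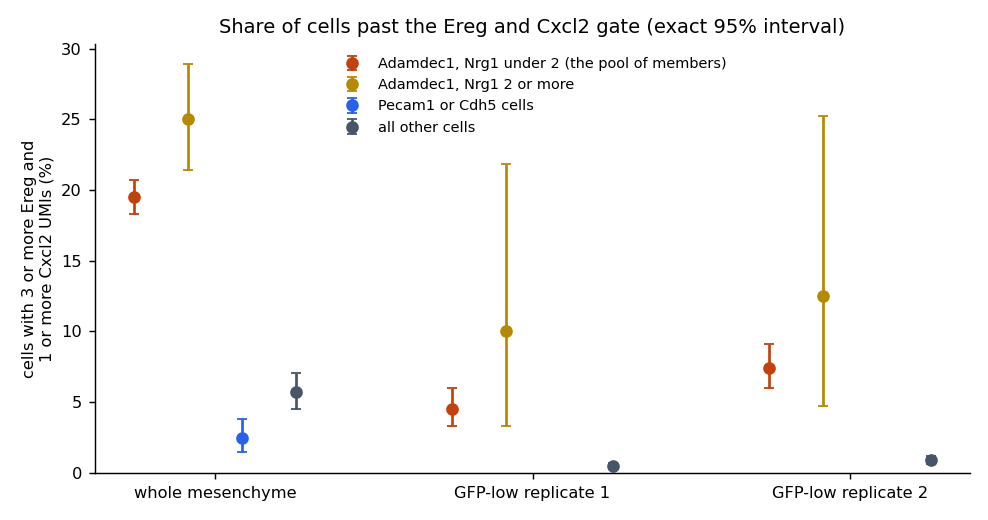
Share of cells, in percent, with 3 or more Ereg and 1 or more Cxcl2 UMIs in each library, for 4 sets of cells, with exact 95% intervals as bars. The share among Adamdec1 cells with fewer than 2 Nrg1 UMIs was 19.5% in the whole mesenchyme library and 4.53% and 7.44% in the GFP-low libraries. Endothelial cells of the GFP-low libraries, 6 and 5 in number, are not drawn.

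Cxcl2 was read in a larger share of cells with Ereg in each library. Among Adamdec1 cells with fewer than 2 Nrg1 UMIs, Cxcl2 was read in 45.3%, 13.8% and 27.8% of cells with 3 or more Ereg UMIs and in 27.9%, 7.46% and 8.30% of the others. With each cell thinned to 2000 UMIs and 1 UMI of either gene counted, the odds ratios were 1.77, 1.76 and 3.55, against 2.14, 1.98 and 4.26 unthinned. Splitting the cells by Ereg alone, 3 or more UMIs against 0, Cxcl2 stood at 1143, 131 and 629 CPM with Ereg and 399, 81.9 and 126 CPM without it. The log2 difference was 1.56 ± 0.18 (SE, n = 3 libraries, edgeR adjusted p = 8.67e-05, higher in 3 of 3), where 1.94% of all genes were called higher. This call was lost without the whole mesenchyme library, where the log2 difference was 1.60 at an edgeR adjusted p of 0.0592. With DESeq2 on all 3 libraries the Cxcl2 difference was 1.52 ± 0.45 SE, at a DESeq2 adjusted p of 0.0421. Splitting by Cxcl2 alone, 1 or more UMIs against 0, Ereg stood at 1967, 884 and 1277 CPM with Cxcl2 and 1095, 444 and 414 CPM without it. That log2 difference was 1.15 ± 0.11 (SE, edgeR adjusted p = 2.96e-05, higher in 3 of 3), where 2.73% of all genes were called higher.

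The Ereg Cxcl2 cells were then summed per library and compared with the summed cells with neither, in a model that takes each library as a block. The 6 genes that set the gate were left out of the test, and the mitochondrial genes were left out with them. Of 10325 genes tested, 414 were higher and 148 lower in the Ereg Cxcl2 cells at an edgeR adjusted p under 0.05. These are the background shares for the lists below, 4.01% of tested genes higher, 1.43% lower and 5.44% either way, and the median log2 difference over all tested genes was 0.00. The difference went the same way in all 3 libraries for 378 of the genes called higher and for 130 of those called lower. The library values of the sets did not overlap for 995 of the 10325 tested genes, called or not. Among the 562 genes called this held for 217, which is the background for the statements on overlap below. Chemokines such as Ccl2 and Cxcl1, NF-kB inhibitors, immediate early factors, Ptgs2 and Has1 were among those higher, and Myh11, Tagln and Txnip were among those lower.

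**Figure D2:**
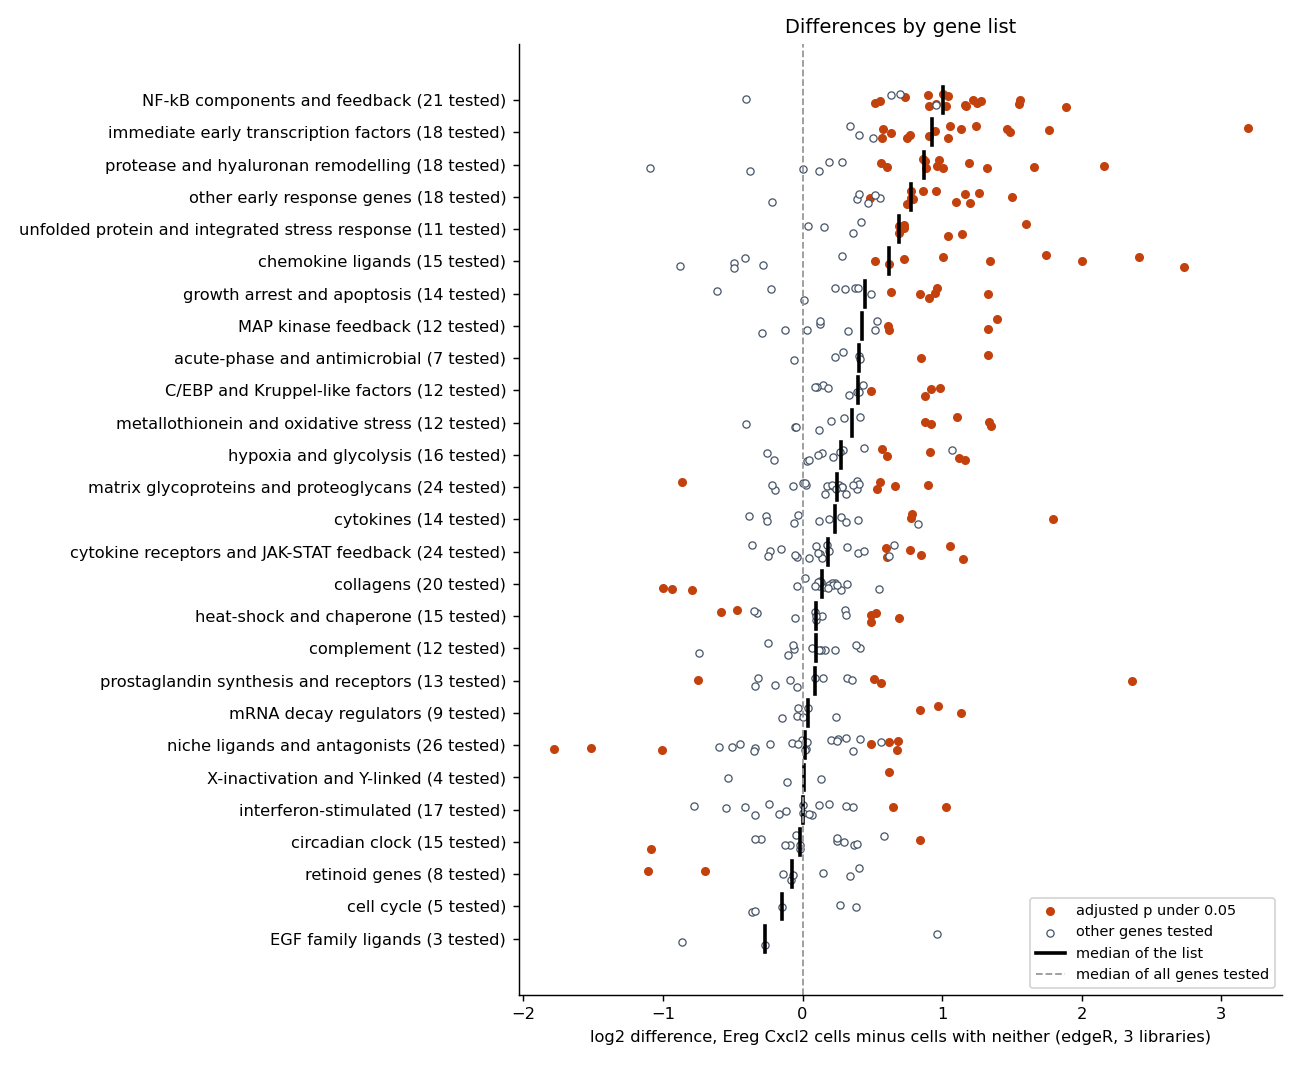
Log2 difference between Ereg Cxcl2 cells and cells with neither for each gene tested, by list, with the number tested in brackets. Filled points passed an edgeR adjusted p of 0.05, black bars are list medians and the dashed line is the median of all 10325 genes. NF-kB components (median 1.00) and immediate early factors (median 0.93) lie to the right, and the EGF ligands (median -0.27) rest on 3 genes.

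Chemokine ligands other than Cxcl2 were higher in part. Of 27 chemokine ligands listed, 15 were tested, 9 were higher and none was lower, at a median log2 difference of 0.62. CPM values of single genes in cell sets, here, below and in the splits above, use library sizes normalised in the fit. Those of free RNA, of summed lists and of summed markers use plain totals, so the 2 scales differ somewhat. Ccl2 draws monocytes through Ccr2. It stood at 2198, 2629.9 and 1486 CPM in the Ereg Cxcl2 cells and 480.1, 251 and 239 CPM in cells with neither. The sets did not overlap, and the log2 difference was 2.73 ± 0.17 SE, edgeR adjusted p = 1.07e-15. In GFP-low replicate 1, 31.4% of the Ccl2 UMIs of the 47 cells came from 1 cell, while in the whole mesenchyme library the highest cell held 2.23%. Cxcl1 stood at 4449, 1666 and 5538 against 1288, 539.6 and 921 CPM (log2 2.004 ± 0.17 SE, edgeR adjusted p = 8.35e-12), with no overlap. Ccl7, another monocyte attractant, stood at 219, 262 and 285 against 55.5, 82.2 and 97.3 CPM (log2 1.74 ± 0.14 SE, edgeR adjusted p = 1.04e-12). Free RNA held Cxcl1 at 2714, 928 and 3148 CPM and Ccl2 at 1308, 623 and 962 CPM, above the cells with neither and below the Ereg Cxcl2 cells for both genes in every library.

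Ligands that act on T cells were mixed. Cxcl10, a Cxcr3 ligand, was higher in 3 of 3 libraries, at 2759, 1689 and 1865 against 1276, 945 and 899 CPM (log2 1.00 ± 0.15 SE, edgeR adjusted p = 3.75e-06). Cxcl9, which shares its receptor, passed at a log2 difference of 0.73, but without GFP-low replicate 1 the log2 difference was 0.26 (edgeR adjusted p = 0.656). Ccl5 passed at 2.41 with 20.3, 285 and 0 CPM against 3.49, 9.92 and 28.0 CPM, and 1 cell held 93.8% of its UMIs in the whole mesenchyme library and another 77.9% in GFP-low replicate 1. Without that replicate Ccl5 did not pass (log2 0.54, edgeR adjusted p = 0.486). Cxcl5, a neutrophil attractant, stood at 138, 369.7 and 30.6 against 55.2, 61.6 and 54.9 CPM, so that it was lower in GFP-low replicate 2, and 58.9% of its UMIs in GFP-low replicate 1 came from 1 cell. Its log2 difference was 1.35, and 0.66 without that replicate (edgeR adjusted p = 0.0164). The homeostatic chemokine Cxcl12 did not pass (1865, 2258 and 2150.2 against 2217, 3227 and 2975 CPM, log2 difference -0.41 ± 0.15 SE, edgeR adjusted p = 0.136), though it was called lower without the whole mesenchyme library (log2 -0.50, edgeR adjusted p = 0.0126).

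Of 24 cytokines listed, 14 were tested, 3 were higher and none was lower, at a median of 0.23. Il6, which signals through gp130, stood at 295, 175 and 394 CPM against 79.3, 66.9 and 99.6 CPM with no overlap (log2 1.80 ± 0.14 SE, edgeR adjusted p = 1.04e-12). It was read in 407 of 808, 24 of 47 and 63 of 88 cells. Lif, a related cytokine, was at 11.3, 9.36 and 4.59 against 5.39, 4.96 and 4.92 CPM and did not pass (log2 0.83 ± 0.39 SE, edgeR adjusted p = 0.294). Csf3 was read in the whole mesenchyme library alone, at 3.57 against 0.317 CPM, and was too low to test. Il33, an alarmin of stromal cells, was at 38.2, 37.4 and 82.7 against 48.9, 69 and 69.7 CPM (log2 -0.25 ± 0.17 SE, edgeR adjusted p = 0.546).

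**Figure D3:**
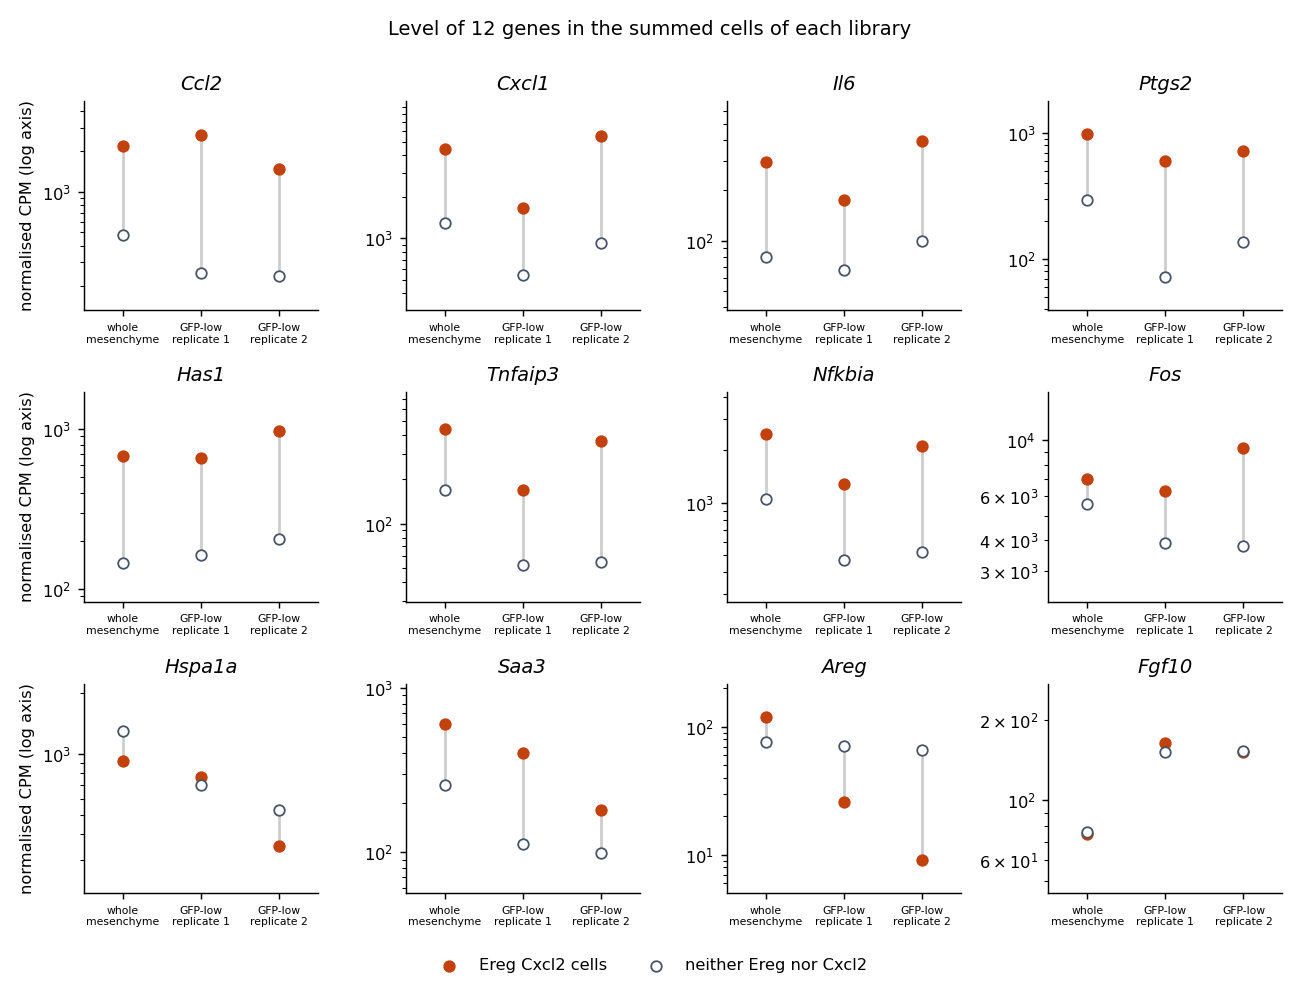
Normalised CPM on a log axis of 12 genes in the summed Ereg Cxcl2 cells (filled) and cells with neither (open) of each library. For Ccl2, Cxcl1, Il6, Ptgs2, Has1, Nfkbia and Fos every filled point lies above every open one, Areg is higher in the whole mesenchyme library and lower in both GFP-low libraries, and the Fgf10 points nearly coincide.

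Most tested NF-kB components and feedback genes were higher. Of 23 listed, 21 were tested, 17 were higher and none was lower, at a median log2 difference of 1.00. Tnfaip3, the ubiquitin editor A20 that restrains NF-kB signalling, stood at 440.5, 168 and 363 CPM against 169, 52.5 and 54.5 CPM (log2 1.89 ± 0.17 SE, edgeR adjusted p = 2.48e-11). It was higher within each library, although its level in GFP-low replicate 1 lay just below that of whole mesenchyme cells with neither. Nfkbia, the inhibitor that holds NF-kB in the cytoplasm, stood at 2459, 1279.8 and 2113 against 1046, 473 and 524 CPM with no overlap (log2 1.56 ± 0.16 SE, edgeR adjusted p = 7.83e-10). The subunit Rel stood at 126, 32.8 and 161 against 58.1, 15.3 and 30.3 CPM (log2 1.55 ± 0.18 SE, edgeR adjusted p = 2.35e-08). The adhesion molecules Icam1 and Vcam1, both bound by leukocyte integrins, passed at log2 differences of 0.96 and 1.00. Cyld, Nfkb2, Nfkbid and Nfkbie were tested and did not pass, at log2 differences from -0.40 to 0.96. Of the 17 genes called, 12 have a promoter in the RefSeq table, and GGNNTTTCC was in 6 of them: Nfkbia, Rel, Bcl3, Tnfaip2, Tnfaip3 and Icam1. With a G required before the motif, 3 of them held it (Nfkbia, Rel and Tnfaip3), and 1.41% of all promoters did. A gene was counted when any of its promoters held the motif, while the shares of all promoters count each promoter singly. Of 11 immediate early genes called and with an entry, Maff alone held GGNNTTTCC. Among called genes with an entry, 3 of 4 chemokines and 0 of 8 protease and hyaluronan genes held it. TGANTCA was in 1 of 12 NF-kB genes, 0 of 11 immediate early genes, 1 of 4 chemokines and 2 of 8 protease and hyaluronan genes.

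Immediate early transcription factors, which cells switch on within minutes of a stimulus, were also higher. Of 19 listed, 18 were tested, 15 were higher and none was lower, at a median of 0.93. Fosl1, a Fos family member, was low but nearly absent from the other set, at 15.7, 16.4 and 21.4 against 2.22, 1.24 and 1.89 CPM (log2 3.19 ± 0.41 SE, edgeR adjusted p = 1.79e-07). Egr1, a zinc finger factor, stood at 9149, 3570.4 and 10333 against 5771, 2315 and 3837 CPM (log2 0.91 ± 0.18 SE, edgeR adjusted p = 0.000328). Atf3 stood at 1631, 955 and 2146 against 1053, 412 and 873 CPM (log2 1.04 ± 0.15 SE, edgeR adjusted p = 3.08e-06). Myc and Maff passed at log2 differences of 1.76 and 1.49, and Nr4a1, an orphan nuclear receptor, at 1.14. Fos stood at 6988, 6299 and 9305 against 5579.8, 3900.5 and 3793 CPM (log2 0.77 ± 0.18 SE, edgeR adjusted p = 0.00317), and Jun at 6054, 5147 and 6889 against 4727, 3882 and 3553 CPM (log2 0.57 ± 0.17 SE, edgeR adjusted p = 0.0311). Fos and Jun were above every cell sum with neither, yet both calls were lost without GFP-low replicate 1 (log2 0.81 and 0.66, edgeR adjusted p = 0.164 and 0.291) and without GFP-low replicate 2 (0.49 and 0.37, edgeR adjusted p = 0.186 and 0.406). Of 18 other early response genes, all tested, 12 were higher and none was lower at a median of 0.77, with Csrnp1 at 1.50, Sik1 at 1.26 and Ier3 at 1.20.

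Per cell, the early response and the chemokine response could be read side by side. With cells thinned to 2000 UMIs, which kept 750, 46 and 87 Ereg Cxcl2 cells and 549, 328 and 437 cells with neither, immediate early factors summed to medians of 74, 63 and 74 UMIs against 56, 33 and 13. NF-kB genes summed to 16, 9 and 14 UMIs against 8, 4 and 4. Chemokines without Cxcl2 summed to 23, 19 and 23 UMIs against 11, 14 and 13. Heat-shock and chaperone genes summed to 13, 9 and 11 UMIs against 13, 9 and 7, so the medians were equal in the first 2 libraries. Among the Ereg Cxcl2 cells of a library, the Spearman correlation of NF-kB and chemokine sums was 0.44, 0.29 and 0.33 over 750, 46 and 87 cells. In cells with neither it was 0.31, 0.33 and 0.29 over 549, 328 and 437 cells. The correlation of immediate early and chemokine sums was 0.15, -0.03 and -0.07, against 0.14, 0.33 and 0.21 in cells with neither. That of immediate early and NF-kB sums was 0.30, 0.16 and 0.23, against 0.60, 0.48 and 0.50. All are descriptions over cells that share a library, and weak values in sparse counts carry no finding.

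**Figure D4:**
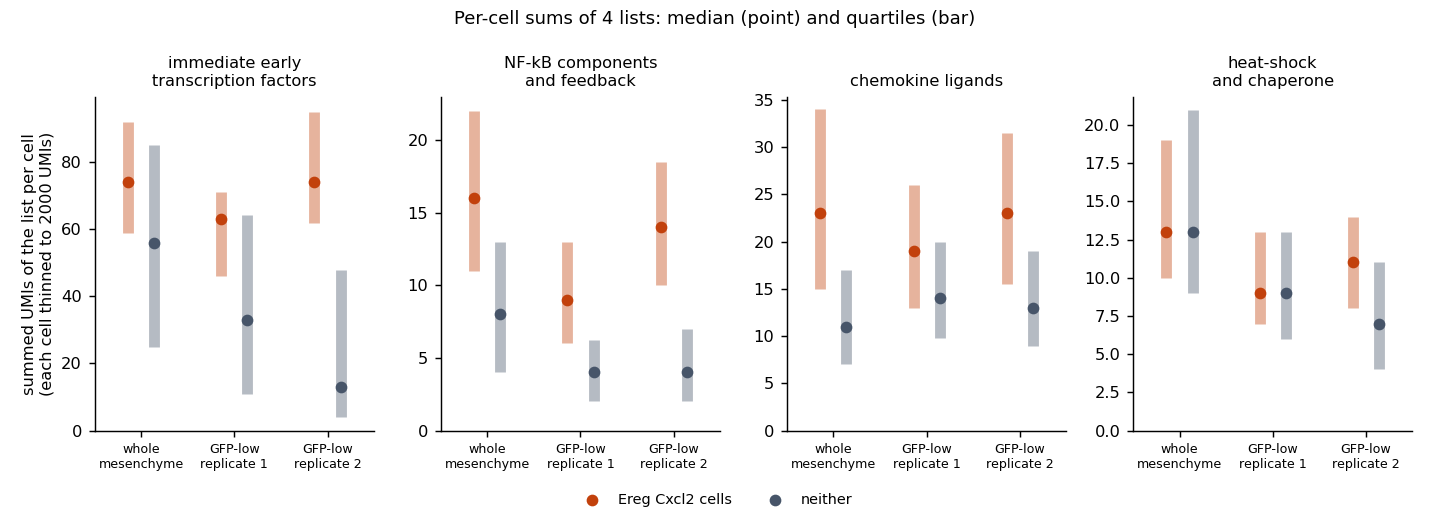
UMIs per cell of 4 gene lists after thinning each cell to 2000 UMIs, as median (point) and quartiles (bar), for Ereg Cxcl2 cells and cells with neither in each library. The immediate early, NF-kB and chemokine medians were higher in the Ereg Cxcl2 cells of every library, and heat-shock medians were equal in the whole mesenchyme library and GFP-low replicate 1.

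Cells with only 1 of the gate genes can be set beside both sets. Adamdec1 cells with 3 or more Ereg UMIs and no Cxcl2 (976, 294 and 228 cells) had summed chemokines at 9486, 7986 and 8697 CPM, and cells with Cxcl2 and no Ereg (282, 29 and 30 cells) had 11103, 13368 and 11530 CPM. The Ereg Cxcl2 cells had 13576, 13376 and 12659 CPM, and cells with neither had 7497, 8134 and 7779 CPM, in summed CPM without Cxcl2. Chemokine sums were thus highest in the Ereg Cxcl2 cells of each library, by under 10 CPM in GFP-low replicate 1, where cells with Ereg alone were below cells with neither. Immediate early factors summed to 36752, 30339 and 45024 CPM in cells with Cxcl2 and no Ereg, against 37675, 27866 and 39204 CPM in the Ereg Cxcl2 cells. Cells with Ereg and no Cxcl2 had 35738, 22771 and 33262 CPM, and cells with neither had 30102, 20273 and 18598 CPM. The sums of empty droplets were 26781, 20747 and 30556 CPM. No test was made among these sets.

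Heat-shock genes, which also respond to tissue handling, gave calls that depended on the setting. Of 15 listed and tested, 4 were higher and 2 were lower, at a median of 0.10. With DESeq2 2 were higher and none was lower, and with sets matched on depth none was higher and 2 were lower. Hspa1a, the inducible Hsp70, stood at 920.4, 769.8 and 351 against 1299, 704 and 529.5 CPM and did not pass (log2 -0.32 ± 0.15 SE, edgeR adjusted p = 0.291). Hspa8 and Bag3 passed at 0.53 and 0.69, but with sets matched on depth the log2 differences were 0.23 and 0.36 (edgeR adjusted p = 0.154 and 0.154). Hspb1, a small heat-shock protein, was lower at 96.1, 7.02 and 44.4 against 149, 26.9 and 47.3 CPM (log2 -0.59 ± 0.18 SE, edgeR adjusted p = 0.0358), and did not pass without the whole mesenchyme library or without GFP-low replicate 1 (log2 -0.50 and -0.48, edgeR adjusted p = 0.635 and 0.153). Leaving out either GFP-low replicate ended the Hspa8 call too (log2 0.53 and 0.37, edgeR adjusted p = 0.251 and 0.258).

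Genes of the stress response in the endoplasmic reticulum and of metal binding were higher in part. Of 11 tested genes of the unfolded protein and integrated stress response (14 listed), 7 were higher and none was lower, at a median of 0.69. Hspa5, the chaperone BiP, stood at 4609, 2768 and 4302 against 2446, 1671 and 1249 CPM with no overlap (log2 1.14 ± 0.17 SE, edgeR adjusted p = 5.02e-06). Ppp1r15a, a phosphatase subunit that ends the translation block, passed at 1.04. Among 12 tested genes of metallothionein and oxidative stress, 5 were higher and none was lower, with Mt1 at 4775, 1392 and 3703 against 2109, 627 and 1161 CPM (log2 1.34 ± 0.16 SE, edgeR adjusted p = 3.65e-08) and Mt2 at 1.35. Of 16 tested hypoxia and glycolysis genes 5 were higher and none was lower, with Hk2 at 1.16 and Pfkfb3 at 1.12, while Vegfa did not pass (0.27, edgeR adjusted p = 0.521). Cdkn1a, the cell cycle inhibitor p21, stood at 289, 117 and 191 against 120.0, 62.4 and 57.6 CPM (log2 1.33 ± 0.15 SE, edgeR adjusted p = 1.02e-08). None of the 5 tested cell cycle genes of 15 listed passed.

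Feedback on cytokine signalling and on messenger RNA was partly raised. Of 24 tested receptors and JAK-STAT feedback genes 6 were higher and none was lower, at a median of 0.18. Socs1 and Socs3, which block cytokine receptor signalling, passed at 1.05 and 0.77, and Socs3 stood at 1923, 1799 and 1640.2 against 1467, 1056 and 736 CPM. The receptor subunits Il6st, Il1r1 and Tlr4 did not pass, at 0.10, -0.23 and 0.11. Among 9 regulators of mRNA decay, all tested, 3 were higher, and Zfp36, which marks cytokine messages for decay, stood at 3401, 2064 and 3374 against 2213, 1315 and 1070.4 CPM (log2 0.97 ± 0.17 SE, edgeR adjusted p = 7.11e-05). Cebpb and Cebpd, transcription factors of the acute-phase response, were both higher with no overlap (0.88 and 0.92), as were 4 of 12 tested C/EBP and Kruppel-like factors in all. Of 17 tested interferon-stimulated genes only Irf1 (1.03) and Gbp2 (0.65) were higher, at a list median of 0.00.

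Ptgs2, the inducible cyclooxygenase of prostaglandin synthesis, stood at 990.0, 606 and 721 CPM against 293, 71.5 and 136 CPM with no overlap (log2 2.36 ± 0.17 SE, edgeR adjusted p = 1.90e-14). It was read in 597 of 808, 31 of 47 and 59 of 88 cells. Of 13 tested prostaglandin genes, 3 were higher and 1 was lower. Hpgd, which breaks prostaglandins down, was lower at 81, 49.1 and 127 against 129, 159 and 159.8 CPM (log2 -0.75 ± 0.16 SE, edgeR adjusted p = 0.00118), a call lost without GFP-low replicate 1 (log2 -0.52, edgeR adjusted p = 0.0679).

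Genes that remodel the matrix and make hyaluronan were higher in part. Of 18 tested protease and hyaluronan genes (22 listed), 12 were higher and none was lower, at a median of 0.87. The number higher was 8 without the whole mesenchyme library and 7 with DESeq2. Has1, a hyaluronan synthase, stood at 675, 657 and 969 CPM against 146, 162 and 206 CPM with no overlap (log2 2.16 ± 0.14 SE, edgeR adjusted p = 2.04e-15), and free RNA held it at 488, 989 and 1436 CPM, above the Ereg Cxcl2 cells in both GFP-low libraries. Tnfaip6, which crosslinks hyaluronan, stood at 957, 573 and 1193 against 269, 219.8 and 363 CPM (log2 1.66 ± 0.15 SE, edgeR adjusted p = 1.31e-11). Adamts4 and Timp1 passed at 1.19 and 0.86, and the gelatinase Mmp2 did not (0.12, edgeR adjusted p = 0.788). None of the 20 collagens was higher and 3 were lower, Col6a4, Col4a6 and Col4a5, and none was lower without the whole mesenchyme library or with DESeq2. Col1a1 stood at 1775, 2019 and 1486 against 1674, 1996 and 1028 CPM (log2 0.21 ± 0.15 SE, edgeR adjusted p = 0.597). The difference between these lists was not tested.

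Niche ligands, through which fibroblasts act on the crypt epithelium, gave calls in both directions. Of 26 tested ligands and antagonists (33 listed), 4 were higher and 3 lower, at a median of 0.02. Over all tested genes 4.01% were higher and 1.43% lower. Without the whole mesenchyme library, and also with DESeq2, 2 were higher and none was lower. Fgf10 stood at 75.1, 164 and 152 against 76.2, 151 and 152 CPM (log2 0.02 ± 0.14 SE, edgeR adjusted p = 0.971). Fgf7, an epithelial growth factor, was higher at 61.9, 86.6 and 79.6 against 39.3, 54.1 and 48.5 CPM (log2 0.68 ± 0.15 SE, edgeR adjusted p = 0.00269), and without the whole mesenchyme library its log2 difference was 0.69 with an edgeR adjusted p of 0.118. Grem1, a BMP antagonist, was at 252, 681 and 559 against 183, 566 and 395 CPM and did not pass (log2 0.41 ± 0.14 SE, edgeR adjusted p = 0.0714). Wnt5a was lower at -1.01, with 42.8, 23.4 and 12.3 against 84.4, 21.5 and 47.7 CPM, but not in GFP-low replicate 1, and without the whole mesenchyme library it did not pass (log2 -1.08, edgeR adjusted p = 0.0781). Of 8 tested retinoid genes 2 were lower, and none without the whole mesenchyme library. Among the 2 was Aldh1a1 at 56.8, 28.1 and 64.3 against 164, 63.2 and 71.6 CPM (log2 -1.10 ± 0.18 SE, edgeR adjusted p = 2.67e-05). Without the whole mesenchyme library the Aldh1a1 difference was -0.52 (edgeR adjusted p = 0.455).

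No other EGF family ligand passed the test. Of 11 ligands listed, Ereg and Nrg1 set the cells and 3 others were tested, none of which passed. Areg, amphiregulin, stood at 119, 25.7 and 9.19 CPM against 75.8, 71.1 and 66.3 CPM, higher in 1 library and lower in 2 (log2 -0.27 ± 0.24 SE, edgeR adjusted p = 0.709). Hbegf was at 18.5, 0 and 27.6 against 13, 2.07 and 5.3 CPM (log2 0.97 ± 0.34 SE, edgeR adjusted p = 0.0949), where the 0 UMIs of GFP-low replicate 1 allow up to 7.3 CPM (3 counts). Without that replicate Hbegf passed at 1.06 (edgeR adjusted p = 0.0233).

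Saa3 passed the test over all cells and not over sets matched on depth. It stood at 606, 402 and 181 CPM in the Ereg Cxcl2 cells against 255, 112 and 98.5 CPM in cells with neither (log2 1.33 ± 0.15 SE, edgeR adjusted p = 1.37e-08). With both sets drawn to the same number of cells per bin of UMIs per cell (442, 46 and 82 cells in each), the log2 difference was 0.38 (edgeR adjusted p = 0.211). Its UMIs were held by few cells: 10 of 808 cells carried 34.9% of them in the whole mesenchyme library, and 1 cell carried 41.9% and 65.3% in the GFP-low replicates. Serpina3g was the other gene called among 7 tested acute-phase genes, at 462, 363 and 435 against 214, 217 and 278 CPM (log2 0.85 ± 0.14 SE, edgeR adjusted p = 2.47e-05).

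Matching on depth left most of the named genes called. Of 83 genes named by rule and called that could be tested in the matched sets, 77 stayed past the threshold in the same direction. The exceptions were Saa3, Bag3, Hspa8, Dusp5, Col4a6 and Mfap5. Most named genes were picked for large differences in the same cells, so a high share that stays is partly built in. Ccl2 stood at a log2 difference of 2.63, Ptgs2 at 2.11, Cxcl1 at 1.76 and Tnfaip3 at 1.74. Over all genes, matched cells called 291 higher and 64 lower of 7150, against 414 and 148 of 10325 without matching. In the matched sets 14 of 20 tested NF-kB genes and 14 of 17 immediate early factors were higher, with none lower. Of 13 chemokines tested there, 6 were higher and 1 was lower, at a median of 0.33, and of 15 heat-shock genes none was higher and 2 were lower. Matching within cells that had a Y-linked UMI and no Xist, a choice made after seeing the data, gave 158 genes higher and 23 lower of 5779. Of 82 named genes that could be tested there, 60 stayed past the threshold in the same direction and 22 did not, Saa3, Jun, Nr4a1, Bag3, Irf1, Hpgd and Sox6 among the latter. Ccl2, Il6 and Nfkbia were still higher (2.56, 1.48 and 1.41, edgeR adjusted p = 0.0001, 0.00101 and 0.00101).

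**Figure D5:**
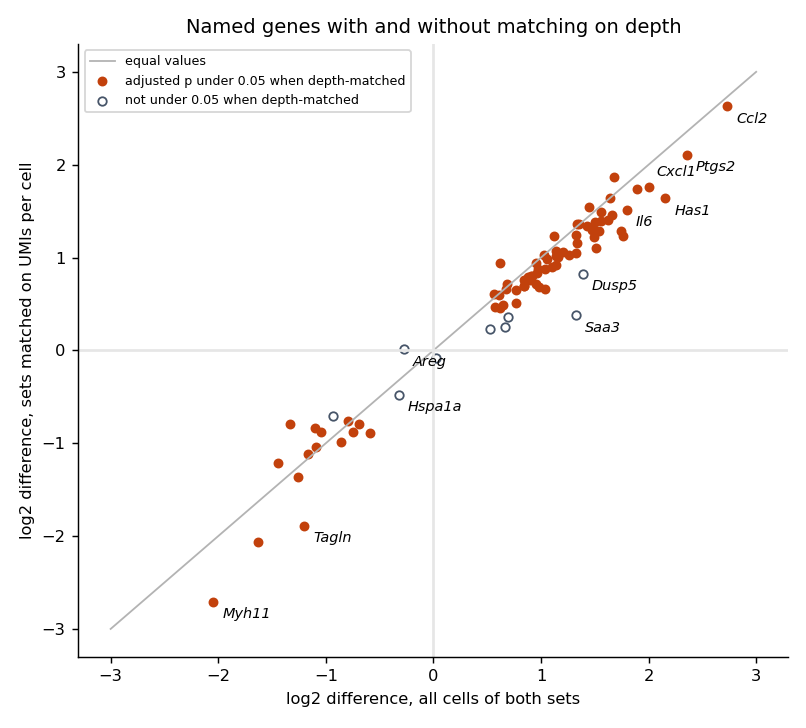
Log2 difference of the genes named by rule in all cells (x axis) and in sets matched on UMIs per cell (y axis). Filled points passed an edgeR adjusted p of 0.05 in the matched sets and the line marks equal values. Saa3 moves from 1.33 to 0.38, and Ccl2 stays near the line at 2.73 and 2.63.

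Outside the lists, the 10 largest rises took in receptors, an E3 ligase and a kinase. Neurl3, the E3 ubiquitin ligase, stood at 174, 32.8 and 130.2 against 59, 21.1 and 27.7 CPM (log2 1.64 ± 0.17 SE, edgeR adjusted p = 2.73e-09). Itpkc, an inositol trisphosphate kinase, stood at 236, 79.6 and 342 against 103, 27.7 and 73.9 CPM (log2 1.63 ± 0.16 SE, edgeR adjusted p = 4.39e-10). Tnfrsf12a, the receptor of the cytokine TWEAK, stood at 188, 101 and 213 against 76.5, 55 and 44.7 CPM with no overlap (log2 1.50 ± 0.16 SE, edgeR adjusted p = 6.00e-09). Ccrl2, an atypical chemokine-binding receptor, and Bdkrb2, a bradykinin receptor, passed at 1.48 and 1.42. Ifrd1, Rab20, Sowahc, Gm17056 and D10Wsu102e were the others, at log2 differences from 1.44 to 1.68.

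The 10 largest falls outside the lists were led by Myh11. Myh11, the smooth muscle myosin heavy chain, stood at 38.6, 4.68 and 3.06 against 159.6, 14 and 16.7 CPM (log2 -2.05 ± 0.20 SE, edgeR adjusted p = 1.96e-10). Myl9, a myosin light chain, stood at 85.6, 11.7 and 21.4 against 268, 66.1 and 43.2 CPM (log2 -1.63 ± 0.18 SE, edgeR adjusted p = 6.00e-09), and Tagln, transgelin, at 259.7, 81.9 and 53.6 against 694, 126 and 129.9 CPM (log2 -1.20 ± 0.16 SE, edgeR adjusted p = 5.64e-07). Each was lower in every library, but Myh11 in the Ereg Cxcl2 cells of both GFP-low libraries lay below the level of 3 counts (7.3 and 4.08 CPM). The 7 smooth muscle and pericyte markers, Myh11 among them, summed to 156, 163 and 114 CPM in the Ereg Cxcl2 cells against 378, 208 and 116 CPM, so the summed level moved in the whole mesenchyme library and nearly coincided in GFP-low replicate 2. Markers of subepithelial telocytes summed to 571, 163 and 193 CPM against 1188, 217 and 273 CPM. The part of such cells in the falls was not tested, and in summed counts fewer cells of a type and less RNA per cell cannot be told apart. Sox6, a transcription factor listed among the telocyte markers, stood at 39, 0 and 0 against 142, 4.55 and 4.92 CPM (log2 -1.91 ± 0.21 SE, edgeR adjusted p = 8.98e-09). Its 0 values allow up to 7.3 and 4.08 CPM (3 counts), and 7.3 is above the 4.55 CPM of cells with neither in GFP-low replicate 1. Tmem158, Gm26532, Fibin, Svil and Tia1 were lower at log2 differences from -1.44 to -1.05. Txnip, a thioredoxin-binding protein, was lower at 468, 194 and 207 against 771, 436 and 585 CPM (log2 -1.09 ± 0.15 SE, edgeR adjusted p = 9.38e-07).

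A last comparison set the same cells beside Adamdec1 cells with 2 or more Nrg1 UMIs, 536, 50 and 48 in number, which carried a median of 11, 4 and 2 Ereg UMIs. Of these Nrg1 cells, 134, 5 and 6 passed the Ereg and Cxcl2 limits themselves. Of 6754 genes tested, 277 (4.1%) were higher and 192 (2.84%) lower, 6.94% in all, in the Ereg Cxcl2 cells, leaving out the gate genes. Has1 stood at 662, 646 and 929 against 108, 92.3 and 199 CPM (log2 2.54 ± 0.16 SE, edgeR adjusted p = 4.88e-06). Il6 stood at 289, 172 and 377 against 67, 32.8 and 118 CPM (log2 2.02 ± 0.17 SE, edgeR adjusted p = 2.05e-05), and Ccl2 at 2157, 2582 and 1424 against 893, 466 and 350.3 CPM (log2 1.90 ± 0.19 SE, edgeR adjusted p = 7.59e-05). Ptgs2 did not separate these sets, at 971, 595 and 691 against 1908, 543 and 393 CPM (log2 -0.06 ± 0.25 SE, edgeR adjusted p = 0.95), and it was higher in the Nrg1 cells of the whole mesenchyme. Saa3 gave a log2 difference of 0.01 ± 0.30 SE, edgeR adjusted p = 0.997. Of 20 tested NF-kB genes 8 were higher and none was lower, and of 17 immediate early factors 6 were higher and 1 was lower. Of 24 tested matrix glycoproteins and proteoglycans 12 were higher and none was lower, where 4 were higher and 1 was lower against cells with neither, and the difference between the comparisons was not tested. Among the higher ones was Mfap5 at 195, 269 and 357 against 46.8, 123 and 45.4 CPM (log2 1.97 ± 0.24 SE, edgeR adjusted p = 0.000276). Of 20 collagens 4 were higher and 4 were lower. Col6a4, a collagen chain, was lower at 19.6, 9.19 and 5.87 against 186, 49.2 and 20.2 CPM (log2 -3.09 ± 0.23 SE, edgeR adjusted p = 1.34e-05), and so was the ligand Wnt4 at 162, 149 and 170.2 against 376, 384 and 609.9 CPM (log2 -1.45 ± 0.16 SE, edgeR adjusted p = 0.000108). Both comparisons share the Ereg Cxcl2 cells.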

How the data were processed

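The 3 single-cell libraries were analysed, and 30 other samples of the series were not used here. The deposited values were UMI counts per gene and barcode, unfiltered, made with Cell Ranger 3.0.2 against mm10, per the submitters' processing notes. The members and gene lists were chosen with earlier results of these data known. Counts were summed per library and cell set, at least 20 cells a sum, and tested with edgeR 4.0.16 (R 4.3.3): genes filtered by filterByExpr, TMM library sizes, a quasi-likelihood fit with library and set as terms, and Benjamini-Hochberg adjustment over all genes tested. Library blocks pair the sets because both come from the same library; no other pairing exists. Summed sets held 410676 to 5067016 UMIs, where 3 counts equal 0.592 to 7.3 CPM. No doublet caller was run; as an alternative the deepest 6% of cells were left out. Named genes were 25 fixed ones, up to 3 per list among those called and the same way in every library, and the 10 largest rises and falls outside the lists at 50 CPM or more; others are given as counts. Cxcl5, Cxcl9, Cxcl10, Cxcl12, Ccl5, Il33, Vcam1, Cyld, Nfkb2, Nfkbid, Nfkbie, Vegfa, Il6st, Il1r1, Tlr4, Adamts4, Timp1, Mmp2, Col1a1, Grem1, Wnt5a and Wnt4, the promoters printed and their motifs were chosen after values were seen. Promoters came from RefSeq (GRCm38.p6).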

Additional observations from a re-analysis of the deposited data

Results flagged for a closer look

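Areg moved in opposite directions in the whole mesenchyme library and in both GFP-low libraries. On the log2 scale with a pseudocount of 1 CPM the difference between Ereg Cxcl2 cells and cells with neither was 0.65 in the whole mesenchyme library and -1.43 and -2.72 in GFP-low replicates 1 and 2. The difference between the libraries was not tested. Without the whole mesenchyme library Areg passed as lower (log2 -2.10, edgeR adjusted p = 2.4e-07), and its UMIs in the Ereg Cxcl2 cells numbered 569, 11 and 6. In the whole mesenchyme library 10 of 808 cells held 46.6% of them.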

How the results depend on the processing

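The sets compared come from the same library, and without that replicate block no gene passed: 0 higher and 0 lower of 10325 with edgeR, 495 at an unadjusted p under 0.05, and 0 in each of the chemokine, NF-kB and immediate early lists. Against the Nrg1 cells the fit without the block called 1 gene higher and 9 lower, and the log2 differences of Cxcl2 (1.65) and Ereg (1.08) in the one-gene splits kept their direction at edgeR adjusted p = 0.9995 and 0.9999. DESeq2 1.42.0, with the block, called 222 higher and 24 lower, 5 chemokines, and 122 and 72 against the Nrg1 cells. Leaving out 1 library gave 269 to 383 genes higher and 54 to 188 lower, the lowest of both without the whole mesenchyme. Chemokines then numbered 5 to 10, Nrg1-cell counts 166 to 341 higher and 82 to 354 lower, the log2 difference of Cxcl2 by Ereg 1.23 to 1.90 and that of Ereg by Cxcl2 0.91 to 1.32. With 2 libraries, 1 residual degree of freedom is left, and p-values lean on the spread over all genes. Thinning to 1000 UMIs gave 148 higher and 40 lower, 10 NF-kB and 7 immediate early genes. Cells with a Y-linked UMI and no Xist gave 240 and 75. With depth matching as well, chosen after seeing the data, they gave 158 and 23, 5 chemokines and 8 immediate early genes. Depth matching lowered the genes called lower to 64, and Adamdec1 at 0.8% or more to 93. Splitting by Ereg alone gave 204 higher, 91 lower, 3 chemokines, 11 NF-kB and 7 immediate early genes, and turned the log2 difference of Hspb1 from -0.59 to 0.060. Cxcl2 alone gave 69 lower. With no filter on low counts, 510 were higher and 391 lower against the Nrg1 cells. The whole mesenchyme share was 18.04% without the deepest 6% of cells, 22.4% at 10% mitochondrial UMIs, 21.2% at 0.8% Adamdec1, 22.6% with a gate on shares and 10.9% with the stricter gate, which gave 2.70% and 5.07% in the GFP-low replicates. Cells with Xist alone were too few in the GFP-low libraries to be fitted. The causes were not tested. Ereg Cxcl2 cells of GFP-low replicate 1, 47 in all, set the depth limit.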
